A study of Mus musculus with 6 samples.

Results

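The respiratory chain and ATP synthase genes are the nuclear genes for the machinery of oxidative phosphorylation. They were taken from the array table by symbol: names beginning with Nduf, Uqcr, Atp5 or with Cox and a digit, and Sdha, Sdhb, Sdhc and Sdhd. Of 19938 genes with a probe set of their own, 97 met this rule: 41 of complex I, 4 of complex II, 8 of complex III, 27 of complex IV and 17 of complex V, the ATP synthase. Ndufa4 and Ndufa4l2 were counted with complex IV, since the NDUFA4 protein is now known to be a subunit of that complex. The genes were measured in 6 mouse colon tumours, 3 of each genotype. The hypomethylated tumours were Dnmt1chip/c; ApcMin/+, with a hypomorphic allele (chip) and a knockout allele (c) of Dnmt1, the gene of the enzyme that copies DNA methylation onto new strands. The control tumours were Dnmt1chip/+; ApcMin/+, and so carried the hypomorphic allele as well, beside a wild-type one. All mice had the truncating ApcMin allele, which starts intestinal tumours, were hybrids of C57BL/6 and 129Sv4, were given 2% (w/v) dextran sodium sulfate, which injures the colon, at 6 weeks of age, and had their tumours taken at 20 weeks. The genes Ndufb1 and Ndufaf8 had no probe set of their own in the annotation used, and Ndufb4, Cox7c and Cox16 shared theirs with other symbols. The study asks whether less DNA methylation goes with differentiation of tumour cells.

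The complexes sit in the inner mitochondrial membrane, where they pass electrons to oxygen and use the energy to pump protons. Complexes I and II take electrons from NADH and succinate, complex III hands them to cytochrome c, complex IV gives them to oxygen, and the ATP synthase uses the proton gradient that results. Most subunits are encoded in the nucleus and a core set in mitochondrial DNA, and dedicated assembly factors build the complexes. Colonocytes at the surface of the gut oxidise butyrate in their mitochondria and are rich in these enzymes, while proliferating and tumour cells rely more on glycolysis.

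Values are on a log2 scale (the base is inferred). In the deposited table each probe set is centred on its median in the 6 tumours; the values therefore hold no expression level, only how a tumour stands to the others. A fold is 2 to the power of a log2 difference. The median lies midway between the third and the fourth value, so in a gene with 1 probe set those 2 values are equal in size and opposite in sign. In the sample descriptions the hypomethylated tumours share 1 number, and 2 of the 3 control tumours share a different one, which may stand for a mouse. The labels do not name separate mice, so a p-value here reflects only how these tumours vary. Dnmt1 had centred log2 values of -0.37, -0.48 and -0.42 in the hypomethylated tumours, against 0.44, 0.52 and 0.37 in the control tumours, and was lower in every hypomethylated tumour. The probe positions relative to the mutations of these alleles are not known here, so this drop is no full check of the labels. The labelled tissue could not be checked by level. Markers of epithelium, such as Epcam, Krt8 and Cdh1, are on the array, but a centred value does not show whether a gene was expressed. The step of the stored values points to a log2 signal of at least 8 before centring for all 7 epithelial markers, but gives no level.

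The genes of the respiratory chain and ATP synthase were mostly higher in the hypomethylated tumours, by small amounts. Of the 97 genes, 84 had a positive difference, 42 rose and none fell (limma with Benjamini-Hochberg adjustment over all genes, adjusted p under 0.05). In the same fit a further 16 had an unadjusted p under 0.05, among them Ndufaf1 and Ndufc2, whose differences were negative. An unadjusted p under 0.05 was thus seen in 58 of the 97 genes and in 8330 of all 19938. Over all genes 48.6% had a positive difference, 10.7% rose and 21.3% fell. The median difference of the 97 genes was 0.22 on the log2 scale, a 1.17-fold higher level, against -0.0058 for all genes. The 42 genes that rose did so by 0.20 to 0.87 on the log2 scale, with a median of 0.32. In 61 of the 97 genes all hypomethylated tumours lay above all control tumours, and in 4 all lay below, where 17.9% and 28.5% of all genes did so. With 20 ways to assign 3 of 6 tumours to a group, the two-sided exact permutation test of a single gene cannot give a p below 0.1. In 83 of the 97 genes the step of the stored values points to a log2 signal of at least 8 in all tumours before centring; among these 41 rose, where 14.8% of all such genes rose and 34% fell.

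**Figure D1:**
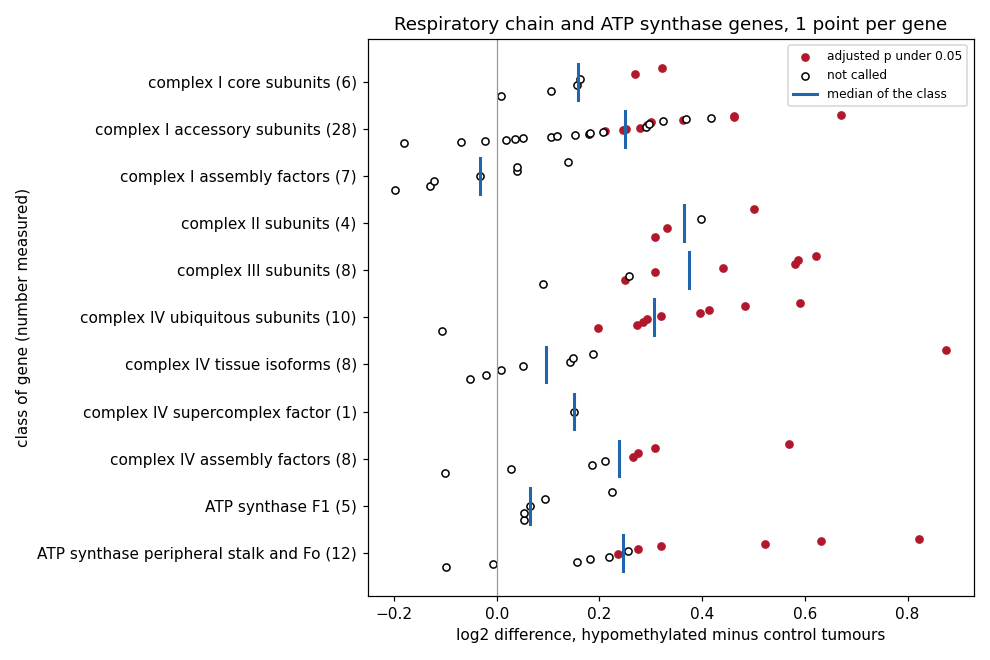
Log2 difference (hypomethylated minus control tumours, horizontal axis) of each of the 97 genes, by complex and role (vertical axis); red points passed an adjusted p of 0.05, open points did not, and blue bars are class medians. Complexes II and III, the complex I core subunits and the F1 part of the ATP synthase lie wholly to the right of 0. The ubiquitous subunits of complex IV lie there almost wholly. The F1 part, the complex I assembly factors and the complex IV supercomplex factor hold no called gene.

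The rise was uneven among the hypomethylated tumours. The median centred value of the 97 genes was 0.038, 0.21 and 0.20 in hypomethylated tumours 1, 2 and 3, and -0.067, -0.061 and -0.081 in control tumours 1, 2 and 3. Hypomethylated tumour 1 was the lowest of its group in 78 of the 97 genes and in 41 of the 42 that rose; among all 2124 genes that rose it was the lowest in 60.9%. Without this tumour 57 of the 97 genes (58.8%) rose, with a median difference of 0.30, where 11.7% of all genes rose. Without hypomethylated tumour 2, hypomethylated tumour 3, control tumour 1, control tumour 2 or control tumour 3 the number was 23, 24, 20, 23 and 24 of the 97, or 20.6% to 24.7%, when 7.06% to 9.02% of all genes rose. Of the 42 calls 19 held without each tumour in turn: Ndufa1, Ndufa5 and Ndufb2 of complex I, Sdha and Sdhc of complex II, Uqcr10, Uqcr11 and Uqcrq of complex III, Cox4i1, Cox5a, Cox5b, Cox6a1, Cox7a1, Cox7a2, Cox7b and Cox14 of complex IV, and Atp5j2, Atp5k and Atp5mpl of complex V. A further 15 were lost without each of the 5 tumours other than hypomethylated tumour 1 in turn: Ndufa7, Ndufa9, Ndufa10, Ndufb5, Ndufb7, Ndufb9, Ndufs3, Uqcrc1, Uqcrfs1, Cox6c, Cox10, Cox11, Cox17, Atp5g3 and Atp5pb. The other 8 were lost in some of these fits: Ndufa8 and Cox6b1 without control tumour 1, Sdhd without control tumour 1 or 2, Ndufa3 without any 1 control tumour, Atp5l without hypomethylated tumour 2, control tumour 1 or control tumour 3, and Ndufs1, Uqcrb and Cox8a in 4 fits each.

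**Figure D2:**
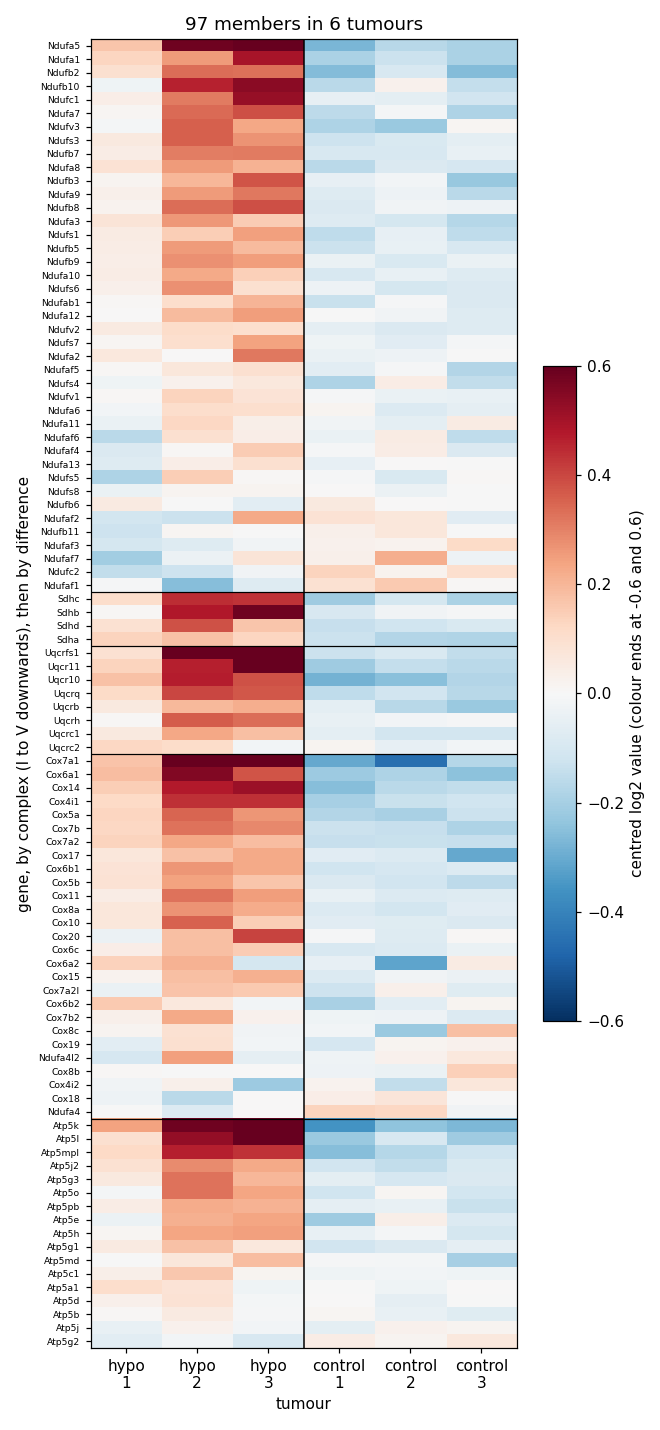
Centred log2 values of the 97 genes (rows, by complex and then by difference) in the 3 hypomethylated and the 3 control tumours (columns); red is above and blue below the median of the gene's probe sets. Hypomethylated tumours 2 and 3 are the reddest columns, hypomethylated tumour 1 is paler, and the 3 control tumours are similar to each other.

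Lists of cell type markers differed between the groups too, some upwards as these genes did and others downwards. The lists were chosen with earlier results of these data known, so their counts are descriptions only. Of 7 epithelial markers 5 rose, with a median difference of 0.26, and all 8 markers of absorptive colonocytes rose, with a median of 3.37. Of 8 fibroblast markers 5 fell (median -0.60), of 8 smooth muscle markers 4 (median -0.41), of 7 macrophage markers 4 (median -0.66), and of 6 endothelial markers 4 fell and 1, Tek, rose (median -0.41). Over all genes 10.7% rose and 21.3% fell. Among all genes inferred at a log2 signal of at least 8, 14.8% rose and 34% fell. Of the fibroblast markers 7, of the macrophage markers 7 and of the epithelial markers 7 were inferred at that signal. Only 3 of the 8 absorptive colonocyte markers, 3 of the 8 smooth muscle markers and 4 of the 6 endothelial markers were. In the 6 lists named so far hypomethylated tumour 1 stood nearest to the control tumours among its group: the median centred value of the fibroblast markers was -0.063, -0.55 and -0.37 in hypomethylated tumours 1, 2 and 3, and 0.063, 0.32 and 0.48 in control tumours 1, 2 and 3. None of 5 markers of T and NK cells passed in limma (1 at an unadjusted p under 0.05), and in this list hypomethylated tumour 1 stood apart, with a median of 0.49 against -0.054 and -0.063 in hypomethylated tumours 2 and 3, and -0.12, -0.13 and 0.054 in control tumours 1, 2 and 3. The part of cell makeup in the values of the respiratory genes was not tested, and in whole tumours more cells of a type cannot be told apart from more RNA per cell.

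Promoters of the genes are shown because nuclear respiratory genes are known for binding sites of nuclear respiratory factor 1 (NRF1) and of ETS-family factors such as GABP, through which they can be regulated together. The windows come from RefSeq (GRCm38.p6), run from 250 bases before the start site to 50 after it, and were found for 79 of the 97 genes, 84 windows in all. The letters of the NRF1 palindrome, GCGCA and GCGC with any 1 base between them, were present on either strand in 22.6% of these windows against 4.6% of all 32851 promoters, and CCGGAAG (ETS) in 26.2% against 8.86%. AANATGGCG (YY1) was present in 13.1% against 2.38%, and TCAAGGTCA, the element of the oestrogen-related receptors (ERR), in 2.38% against 0.423%. NRF1, ETS and YY1 letters were present both in genes that rose and in genes that did not pass. YY1 letters were in 11.4% of the windows of genes that rose and in 14.3% of those of the other genes. ERR letters were in 2 of the 35 windows of genes that rose (5.71%) and in 0 of the 49 windows of the other genes. So few matches allow no comparison. NRF1 letters were in 25.7% of the windows of genes that rose and in 20.4% of those of the other genes, and ETS letters in 31.4% of those of genes that rose and 22.4% of those of the other genes. CpG dinucleotides, the sites of DNA methylation, numbered 2 to 43 per window with a median of 20, against a median of 7 over all promoters; the median was 19 for genes that rose and 20 for the other genes. The NRF1, ETS and YY1 letters contain a CpG themselves, and the windows were not compared with promoters of like CpG content. An excess over all promoters is therefore not shown to be particular to these genes. These shares are descriptions and show no binding.

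Here 5 promoters, picked after their letters were seen, are printed 5′ to 3′ from 250 bases before the start site to 30 after it, with matches to these letters in capitals: 4 of genes that rose and hold matches, and that of Cox7a1, which rose most and holds none.
Cox6a1 (GRCm38.p6 chr5:115348929-115349208, minus strand): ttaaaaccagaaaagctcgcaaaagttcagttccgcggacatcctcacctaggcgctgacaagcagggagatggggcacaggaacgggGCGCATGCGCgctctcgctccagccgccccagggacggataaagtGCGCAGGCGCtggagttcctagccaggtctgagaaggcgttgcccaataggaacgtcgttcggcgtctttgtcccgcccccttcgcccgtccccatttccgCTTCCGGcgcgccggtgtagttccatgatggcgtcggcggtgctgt
Atp5k (GRCm38.p6 chr5:108434370-108434649, minus strand): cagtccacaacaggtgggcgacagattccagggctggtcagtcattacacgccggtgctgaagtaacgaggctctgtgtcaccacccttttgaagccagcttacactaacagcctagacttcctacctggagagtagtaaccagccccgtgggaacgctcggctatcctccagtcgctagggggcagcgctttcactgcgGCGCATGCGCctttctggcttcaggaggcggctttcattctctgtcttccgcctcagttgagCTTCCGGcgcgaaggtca
Sdha (GRCm38.p6 chr13:74350211-74350490, minus strand): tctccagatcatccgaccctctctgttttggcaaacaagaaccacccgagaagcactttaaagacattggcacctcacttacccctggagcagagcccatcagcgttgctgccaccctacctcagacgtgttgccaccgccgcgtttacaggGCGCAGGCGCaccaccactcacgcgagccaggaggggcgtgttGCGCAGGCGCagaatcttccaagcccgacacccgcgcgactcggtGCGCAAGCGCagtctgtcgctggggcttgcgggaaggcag
Sdhd (GRCm38.p6 chr9:50603820-50604099, minus strand): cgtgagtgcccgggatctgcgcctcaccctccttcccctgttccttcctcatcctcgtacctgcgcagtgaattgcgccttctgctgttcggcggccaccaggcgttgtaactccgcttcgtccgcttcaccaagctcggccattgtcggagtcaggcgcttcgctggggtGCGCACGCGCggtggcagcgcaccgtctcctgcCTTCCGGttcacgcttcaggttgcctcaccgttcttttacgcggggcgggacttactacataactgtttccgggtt
Cox7a1 (GRCm38.p6 chr7:30183921-30184200, plus strand): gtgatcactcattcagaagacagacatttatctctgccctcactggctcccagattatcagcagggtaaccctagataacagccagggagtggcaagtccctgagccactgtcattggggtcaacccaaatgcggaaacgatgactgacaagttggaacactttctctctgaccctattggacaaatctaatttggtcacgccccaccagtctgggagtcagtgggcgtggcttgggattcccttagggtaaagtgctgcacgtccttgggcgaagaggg
Cox6a1 has NRF1 letters beginning 162 and 117 bases before the start site and ETS letters 16 bases before it. Atp5k has NRF1 letters 50 bases before and ETS letters 12 bases after the start. Sdha has NRF1 letters at 98, 55 and 10 bases before the start, and Sdhd has NRF1 letters 79 and ETS letters 46 bases before it, with ERR letters 36 bases after it, outside the printed stretch. The matches in these promoters do not overlap each other. The Cox7a1 window has 7 CpG dinucleotides, against 32 in that of Cox6a1, 29 in Sdhd, 25 in Sdha and 19 in Atp5k.

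Complex I, which oxidises NADH, had 13 of 41 genes higher and none lower, with a median difference of 0.18 (1.13-fold). The number was 21 without hypomethylated tumour 1, 3 without control tumour 1 and 5 without each of the other 4 tumours in turn. In these fits 11.7%, 7.06% and 8.01% to 9.02% of all genes rose. Without control tumour 1 the share of complex I was thus close to that of all genes. Its core subunits carry the flavin and the iron-sulfur clusters, and 2 of 6 rose. Ndufs1, the subunit with several iron-sulfur clusters, had centred log2 values of 0.052, 0.15 and 0.25 in hypomethylated tumours, against -0.15, -0.052 and -0.15 in control tumours. Ndufs3 had 0.061, 0.36 and 0.27 in hypomethylated tumours, against -0.12, -0.094 and -0.061 in control tumours. In both genes tumour 1 was the lowest of the hypomethylated group and the groups did not overlap; Ndufs1 rose by 0.27 ± 0.070 (SE) and Ndufs3 by 0.32 ± 0.084 (log2) (limma, adjusted p = 0.0244 and 0.0249). Of the core subunits that did not pass, Ndufv2 and Ndufv1, which bind NADH with its flavin and a neighbouring cluster, differed by 0.16 and 0.11, and Ndufs7 and Ndufs8 by 0.16 and 0.0076.

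Accessory subunits surround the core of complex I and are needed for its assembly and stability; 11 of 28 rose and none fell (median 0.25). Ndufa5 changed most: it had 0.17, 0.58 and 0.63 in hypomethylated tumours, against -0.28, -0.17 and -0.19 in control tumours. All 3 hypomethylated tumours lay above the control tumours, and tumour 1 lay closest to them. Ndufa5 rose by 0.67 ± 0.12 (SE) on the log2 scale, 1.59-fold (limma, adjusted p = 0.00686). Ndufa1, a small membrane subunit encoded on the X chromosome, had 0.13, 0.25 and 0.49 in hypomethylated tumours, against -0.19, -0.13 and -0.19 in control tumours, and rose by 0.46 ± 0.096 (adjusted p = 0.0106). Ndufb2 had 0.098, 0.34 and 0.33 in hypomethylated tumours, against -0.26, -0.098 and -0.26 in control tumours, and rose by 0.46 ± 0.087 (adjusted p = 0.00740). In both the groups did not overlap, and in all these genes the control tumours lay closer together than the hypomethylated ones. Ndufa8 rose by 0.30 ± 0.065 (adjusted p = 0.0125).

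The other accessory subunits that rose were Ndufa7 (0.36), Ndufb7 (0.30), Ndufa9 (0.29), Ndufa3 (0.28), Ndufb5 (0.25), Ndufb9 (0.25) and Ndufa10 (0.21). Among those that did not pass, Ndufb10, Ndufc1, Ndufv3, Ndufb3 and Ndufb8 had differences as large, 0.42, 0.37, 0.32, 0.30 and 0.29, with adjusted p-values of 0.0750, 0.0507, 0.0610, 0.0714 and 0.0650; all 5 passed without hypomethylated tumour 1. Ndufb10 had -0.028, 0.46 and 0.54 in hypomethylated tumours, against -0.16, 0.028 and -0.14 in control tumours, with tumour 1 of the hypomethylated group below control tumour 2. Ndufs6, Ndufab1, the mitochondrial acyl carrier protein, and Ndufa12 differed by 0.21, 0.18 and 0.18, and passed only in the fit without that tumour among the 6 fits that each leave out 1 tumour. Ndufa2, Ndufs4 and Ndufa6 differed by 0.15, 0.12 and 0.11, and Ndufa11, Ndufa13 and Ndufs5 by 0.050, 0.035 and 0.018. Negative differences were seen in Ndufb6 (-0.023), Ndufb11 (-0.069) and Ndufc2 (-0.18), none of which passed. Ndufc2 had -0.15, -0.12 and -0.019 in hypomethylated tumours, against 0.13, 0.019 and 0.10 in control tumours, without overlap between the groups.

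Complex I assembly factors help build the complex and leave it when it is complete. None of 7 passed in limma in either direction (1 at an unadjusted p under 0.05), and their median difference was -0.033; the difference from the subunits was not tested. Ndufaf1, a chaperone of the membrane arm, had -0.0052, -0.26 and -0.079 in hypomethylated tumours, against 0.092, 0.16 and 0.0052 in control tumours. All 3 hypomethylated tumours lay below the control tumours, and Ndufaf1 differed by -0.20 (SE 0.081, adjusted p = 0.111), the most negative value of the 97 genes. Ndufaf7, Ndufaf3 and Ndufaf2 differed by -0.13, -0.12 and -0.033, and Ndufaf4, Ndufaf6 and Ndufaf5 by 0.039, 0.039 and 0.14.

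Complex II, succinate dehydrogenase, is also an enzyme of the citric acid cycle and is wholly encoded in the nucleus. Of its 4 subunits 3 rose, with a median difference over all 4 of 0.36 (1.29-fold), and no subunit overlapped between the groups. Sdha, the flavoprotein that oxidises succinate, had 0.13, 0.18 and 0.13 in hypomethylated tumours, against -0.13, -0.18 and -0.18 in control tumours. The 3 hypomethylated tumours were alike in this gene, and Sdha rose by 0.31 ± 0.052 (SE) on the log2 scale (limma, adjusted p = 0.00487). Sdhc, a membrane anchor that binds haem and ubiquinone, had 0.11, 0.44 and 0.44 in hypomethylated tumours, against -0.21, -0.11 and -0.19 in control tumours, and rose by 0.50 ± 0.10 (adjusted p = 0.00922). Sdhd, the other anchor, had 0.094, 0.38 and 0.16 in hypomethylated tumours, against -0.14, -0.12 and -0.094 in control tumours, and rose by 0.33 ± 0.082 (adjusted p = 0.0206). In both anchors tumour 1 was the lowest of the hypomethylated group. Sdhb, the iron-sulfur subunit, had 0.0060, 0.48 and 0.58 in hypomethylated tumours, against -0.095, -0.022 and -0.0060 in control tumours, and differed by 0.40 (SE 0.14, adjusted p = 0.0772). It did not pass, with tumour 1 level with the control tumours and tumours 2 and 3 far above them; without hypomethylated tumour 1 it passed, with a difference of 0.57 (adjusted p = 0.00182). The median over the 4 subunits was 0.48 without that tumour.

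Complex III, the cytochrome bc1 complex, had 6 of 8 subunits higher and none lower, with a median difference of 0.37 (1.30-fold), close to that of complex II; the complexes were not tested against each other. The number was 3 without hypomethylated tumour 2, hypomethylated tumour 3, control tumour 2 or control tumour 3. Uqcrfs1, the Rieske iron-sulfur protein that passes electrons to cytochrome c1, had 0.089, 0.61 and 0.80 in hypomethylated tumours, against -0.13, -0.089 and -0.15 in control tumours. Hypomethylated tumours 2 and 3 lay far above tumour 1, which lay just above the control tumours. Uqcrfs1 rose by 0.62 ± 0.17 (SE) on the log2 scale, 1.54-fold (limma, adjusted p = 0.0286). Uqcr11 and Uqcr10 are small membrane subunits. Uqcr11 had 0.13, 0.47 and 0.65 in hypomethylated tumours, against -0.21, -0.14 and -0.16 in control tumours, and Uqcr10 had 0.18, 0.47 and 0.38 in hypomethylated tumours, against -0.28, -0.25 and -0.18 in control tumours. They rose by 0.59 ± 0.12 and 0.58 ± 0.085 (adjusted p = 0.0113 and 0.00290), with no overlap between groups; Uqcr10 had the lowest adjusted p of all 97 genes. Uqcrq, the ubiquinone-binding subunit, had 0.12, 0.40 and 0.37 in hypomethylated tumours, against -0.15, -0.12 and -0.16 in control tumours, and rose by 0.44 ± 0.085 (adjusted p = 0.00794).

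Uqcrb, which contributes to the quinone site, and Uqcrc1, one of the core proteins, rose by 0.31 ± 0.072 (SE) and 0.25 ± 0.064 (adjusted p = 0.0162 and 0.0236). Uqcrc2, the other core protein, differed by 0.089 (SE 0.061, adjusted p = 0.324), and its hypomethylated values of 0.12, 0.11 and -0.016 overlapped the control values of 0.016, -0.048 and -0.018. Uqcrh, the hinge protein, differed by 0.26 (SE 0.099, adjusted p = 0.0937) and passed without hypomethylated tumour 1. Cyc1, the haem subunit cytochrome c1 of the same complex, whose symbol lies outside the rule, had 0.057, 0.22 and 0.18 in hypomethylated tumours, against -0.13, -0.057 and -0.16 in control tumours, and rose by 0.27 ± 0.066 (adjusted p = 0.0203). Its call was kept without hypomethylated tumour 1 and without control tumour 2, and lost without each of the other 4 tumours in turn.

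Complex IV, cytochrome c oxidase, reduces oxygen to water. Of 27 genes 14 rose and none fell (median 0.21), 9 without hypomethylated tumour 2 or 3 or without control tumour 2, 8 without control tumour 1. Of the ubiquitous nuclear subunits 9 of 10 rose, with a median difference of 0.31 (1.24-fold). Cox6a1 had 0.18, 0.56 and 0.38 in hypomethylated tumours, against -0.22, -0.18 and -0.25 in control tumours. Cox5a, which binds a thyroid hormone metabolite, had 0.13, 0.35 and 0.27 in hypomethylated tumours, against -0.17, -0.19 and -0.13 in control tumours. Neither overlapped between groups; Cox6a1 rose by 0.59 ± 0.096 (SE) (log2), or 1.5-fold, and Cox5a by 0.41 ± 0.070, or 1.33-fold (limma, adjusted p = 0.00429 and 0.00496). Cox7a2, a small subunit with a muscle-type counterpart, had 0.13, 0.23 and 0.18 in hypomethylated tumours, against -0.14, -0.13 and -0.14 in control tumours, and rose by 0.32 ± 0.053 (adjusted p = 0.00471). Cox7b had 0.12, 0.33 and 0.29 in hypomethylated tumours, against -0.13, -0.14 and -0.18 in control tumours, and rose by 0.40 ± 0.069 (adjusted p = 0.00552). The 3 control tumours were close together in both. Cox4i1, the regulatory subunit that binds ATP, Cox6b1, which joins the monomers of the enzyme, Cox5b, Cox8a and Cox6c rose by 0.48, 0.29, 0.28, 0.27 and 0.20. Ndufa4 was the exception, with -0.0042, -0.083 and 0.0042 in hypomethylated tumours, against 0.13, 0.12 and -0.020 in control tumours, overlapping groups and a difference of -0.11 (adjusted p = 0.270).

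Tissue isoforms of complex IV subunits are made mainly in heart and skeletal muscle (Cox6a2, Cox7a1, Cox8b), testis (Cox6b2, Cox7b2, Cox8c) or, for Cox4i2 and Ndufa4l2, under low oxygen or in particular cell types. Of these 8 genes 1 rose, Cox7a1, and it rose most of all 97 genes. It had 0.17, 0.83 and 0.69 in hypomethylated tumours, against -0.31, -0.45 and -0.17 in control tumours. The groups did not overlap, hypomethylated tumours 2 and 3 were far above the rest, and Cox7a1 rose by 0.87 ± 0.17 (SE) on the log2 scale, 1.83-fold (limma, adjusted p = 0.00833). The other muscle isoforms Cox6a2 and Cox8b differed by 0.19 and -0.021, with adjusted p-values of 0.292 and 0.855. Cox6a2 had 0.14, 0.21 and -0.11 in hypomethylated tumours, against -0.048, -0.32 and 0.048 in control tumours, with overlapping groups. None of 8 striated muscle markers passed in limma (0 at an adjusted p under 0.05, 1 at an unadjusted p under 0.05, median 0.075). Of 8 smooth muscle markers 4 fell and none rose, where 21.3% of all genes fell and 10.7% rose. No marker of adipocytes (4) or brown adipocytes (4) passed (2 at an unadjusted p under 0.05, both of brown adipocytes). The testis isoforms Cox7b2, Cox6b2 and Cox8c differed by 0.14, 0.15 and 0.051 and the isoforms Cox4i2 and Ndufa4l2 by -0.051 and 0.0088; none passed. Of these 8 genes 1, Cox7a1, was inferred at a log2 signal of at least 8 in all tumours, and the other 7 were dimmer in at least 1 tumour.

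Assembly factors of complex IV rose in 4 of 8 cases with none lower (median 0.24). Cox14, which holds the newly made COX1 protein, had 0.15, 0.47 and 0.51 in hypomethylated tumours, against -0.26, -0.16 and -0.15 in control tumours. It did not overlap between groups and rose by 0.57 ± 0.10 (SE) on the log2 scale, 1.48-fold (limma, adjusted p = 0.00635). Cox17 and Cox11, which bring copper to the enzyme, and Cox10, which makes its haem precursor, rose by 0.31 ± 0.084, 0.28 ± 0.080 and 0.27 ± 0.081 (adjusted p = 0.0297, 0.0371 and 0.0441). Cox20 and Cox15, which act on the COX2 protein and on haem A, differed by 0.21 and 0.19, and Cox19 and Cox18 by 0.027 and -0.100. Cox7a2l, which joins complexes III and IV into supercomplexes, differed by 0.15 (adjusted p = 0.204).

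The ATP synthase, complex V, had 6 of 17 genes higher and none lower (median 0.22), 3 without hypomethylated tumour 2, control tumour 1 or control tumour 3 and 9 without hypomethylated tumour 1. All 6 belong to the membrane part Fo and the peripheral stalk, where 6 of 12 rose. Atp5k, subunit e, which with subunit g pairs the enzyme into dimers, had 0.24, 0.58 and 0.77 in hypomethylated tumours, against -0.36, -0.24 and -0.27 in control tumours. Atp5l, subunit g, had 0.096, 0.53 and 0.74 in hypomethylated tumours, against -0.22, -0.096 and -0.21 in control tumours. Every hypomethylated tumour lay above every control tumour in both, and tumour 1 was the lowest of its group. Atp5k rose by 0.82 ± 0.13 (SE) (log2), or 1.77-fold, and Atp5l by 0.63 ± 0.15, or 1.55-fold (limma, adjusted p = 0.00377 and 0.0192); the 6 probe sets of Atp5l lay between 0.60 and 0.67. Atp5mpl, a small proteolipid of the membrane part, had 0.12, 0.47 and 0.43 in hypomethylated tumours, against -0.26, -0.17 and -0.12 in control tumours, and rose by 0.52 ± 0.10 (adjusted p = 0.00824). Atp5j2, subunit f, had 0.094, 0.28 and 0.23 in hypomethylated tumours, against -0.11, -0.15 and -0.094 in control tumours, and rose by 0.32 ± 0.066 (adjusted p = 0.0102).

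Of the 3 genes for the same c subunit of the proton ring, Atp5g3 rose by 0.27 ± 0.077 (SE) (adjusted p = 0.0322), Atp5g1 differed by 0.18 (adjusted p = 0.0538) and Atp5g2 by -0.099 (adjusted p = 0.212). Atp5g2 had -0.065, -0.014 and -0.094 in hypomethylated tumours, against 0.045, 0.014 and 0.063 in control tumours, the hypomethylated tumours all lying below the control ones. Atp5pb, subunit b of the stalk, rose by 0.24, and Atp5o, Atp5h and Atp5j of the stalk and Atp5md of the membrane part differed by 0.26, 0.22, -0.0069 and 0.16. In the catalytic F1 head none of 5 genes passed in limma (0 at an unadjusted p under 0.05), and the median difference was 0.064 (1.05-fold). Atp5b, the catalytic beta subunit, had 0.0085, 0.053 and -0.0085 in hypomethylated tumours, against 0.011, -0.043 and -0.071 in control tumours. Atp5a1, the alpha subunit, had 0.11, 0.081 and -0.024 in hypomethylated tumours, against -0.0043, -0.027 and 0.0043 in control tumours. Both overlapped between the groups, and they differed by 0.052 (SE 0.054) and 0.064 (SE 0.058). The subunits Atp5d, Atp5c1 and Atp5e differed by 0.053, 0.093 and 0.22. The difference between the F1 and the Fo genes was not tested.

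**Figure D3:**
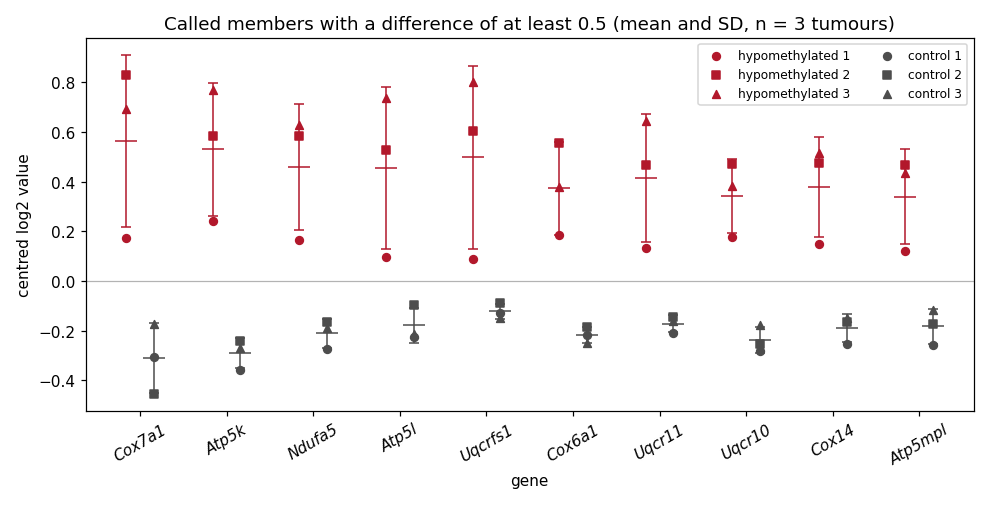
Centred log2 values (vertical axis) of the 10 genes that rose by at least 0.5, by gene (horizontal axis), in hypomethylated (red, left) and control tumours (grey, right); bars are mean and SD of 3 tumours. All red points lie above all grey points, and hypomethylated tumour 1, the red circle, is the lowest of its group in each gene.

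Of the mitochondrial genome 2 genes had a probe set of their own in the annotation, and both rose. COX2 of complex IV had 0.074, 0.13 and 0.12 in hypomethylated tumours, against -0.074, -0.098 and -0.24 in control tumours, and ND3 of complex I had 0.12, 0.13 and 0.075 in hypomethylated tumours, against -0.095, -0.083 and -0.28 in control tumours. COX2 rose by 0.25 ± 0.064 (SE) and ND3 by 0.26 ± 0.069 (log2) (limma, adjusted p = 0.0241 and 0.0270), with tumour 1 as high as the others of its group in ND3; the call of COX2 was kept only without hypomethylated tumour 1, and that of ND3 only without control tumour 2, of the 6 fits that leave out 1 tumour. Cycs, cytochrome c itself, had 0.033, 0.29 and 0.43 in hypomethylated tumours, against -0.15, -0.034 and -0.31 in control tumours, and rose by 0.42 ± 0.12 (adjusted p = 0.0336), a call lost without hypomethylated tumour 2, hypomethylated tumour 3, control tumour 1 or control tumour 3. Atpif1, the inhibitor of the ATP synthase, differed by 0.079 (adjusted p = 0.538).

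Of 31 measured assembly factors outside the rule 3 rose and 7 fell, with a median difference of 0.011, where 10.7% of all genes rose and 21.3% fell; the shares are close to those of all genes. Higd1a, a hypoxia-induced protein that binds complex IV, rose by 1.45 ± 0.26 (SE) on the log2 scale and Sco1, which delivers copper to it, by 0.64 ± 0.080 (limma, adjusted p = 0.00597 and 0.00165). Higd1a had 0.34, 1.43 and 1.10 in hypomethylated tumours, against -0.46, -0.34 and -0.67 in control tumours, and no tumours overlapped between the groups in either gene. Coa3 rose by 0.27. Timmdc1 and Foxred1, factors of complex I assembly, fell to means of -0.16 and -0.24 in hypomethylated tumours, against 0.17 and 0.15 in control tumours, differences of -0.33 and -0.39 (adjusted p = 0.00737 and 0.00921). The others that fell were Atpaf1 (-0.33), Sdhaf1 (-0.35), Nubpl (-0.37), Sdhaf4 (-0.22) and Coa7 (-0.21).

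Of 15 measured genes of pyruvate dehydrogenase and the citric acid cycle, which supply the chain with electrons, 5 rose and 1 fell (median 0.16), where 10.7% of all genes rose and 21.3% fell. Suclg2 and Suclg1, subunits of the GTP-forming succinyl-CoA ligase, rose by 0.64 ± 0.065 (SE) and 0.54 ± 0.11 (log2) (limma, adjusted p = 8.11e-04 and 0.00856), and Ogdh by 0.21 ± 0.057 (adjusted p = 0.0284), a call kept only without hypomethylated tumour 1 of the fits that leave out 1 tumour. Suclg2 had 0.25, 0.42 and 0.42 in hypomethylated tumours, against -0.30, -0.25 and -0.27 in control tumours. Idh3a, a subunit of NAD-dependent isocitrate dehydrogenase, had -0.16, -0.34 and -0.34 in hypomethylated tumours, against 0.27, 0.18 and 0.16 in control tumours, and fell, with a difference of -0.48 (SE 0.072, adjusted p = 0.00312). All hypomethylated tumours lay below all control tumours in this gene.

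Of 17 measured regulators of mitochondrial gene expression 3 rose and 5 fell (median -0.15), where 10.7% of all genes rose and 21.3% fell, so the counts say little of the list, and its genes are given for themselves. Ppargc1b, a coactivator (PGC-1beta) of respiratory genes, had 0.50, 0.88 and 0.83 in hypomethylated tumours, against -0.65, -0.52 and -0.50 in control tumours. It rose by 1.30 ± 0.11 (SE) on the log2 scale, 2.46-fold (limma, adjusted p = 4.71e-04). Its paralogue Ppargc1a (PGC-1alpha) had -0.65, -0.78 and -0.24 in hypomethylated tumours, against 0.58, 0.41 and 0.24 in control tumours, and differed by -0.97 (SE 0.15, adjusted p = 0.00361). The 2 coactivators thus moved in opposite directions, each without overlap between the groups. Esrra, the nuclear receptor that binds ERR elements and works with both, had 0.15, 0.66 and 0.55 in hypomethylated tumours, against -0.15, -0.16 and -0.15 in control tumours, with tumour 1 lowest of its group, and rose by 0.60 ± 0.13 (adjusted p = 0.0115). Its relative Esrrg rose by 0.38. Nrf1 differed by -0.012 (SE 0.052, adjusted p = 0.891), Gabpa by -0.19 (adjusted p = 0.136) and Tfam, which packages and transcribes mitochondrial DNA, by -0.25 (adjusted p = 0.297). The genes that fell besides Ppargc1a were Tfb1m (-0.45), which methylates mitochondrial ribosomal RNA, the mitochondrial helicase gene Twnk (-0.40), Gabpb1 (-0.27) and the mitochondrial RNA polymerase gene Polrmt (-0.21).

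**Figure D4:**
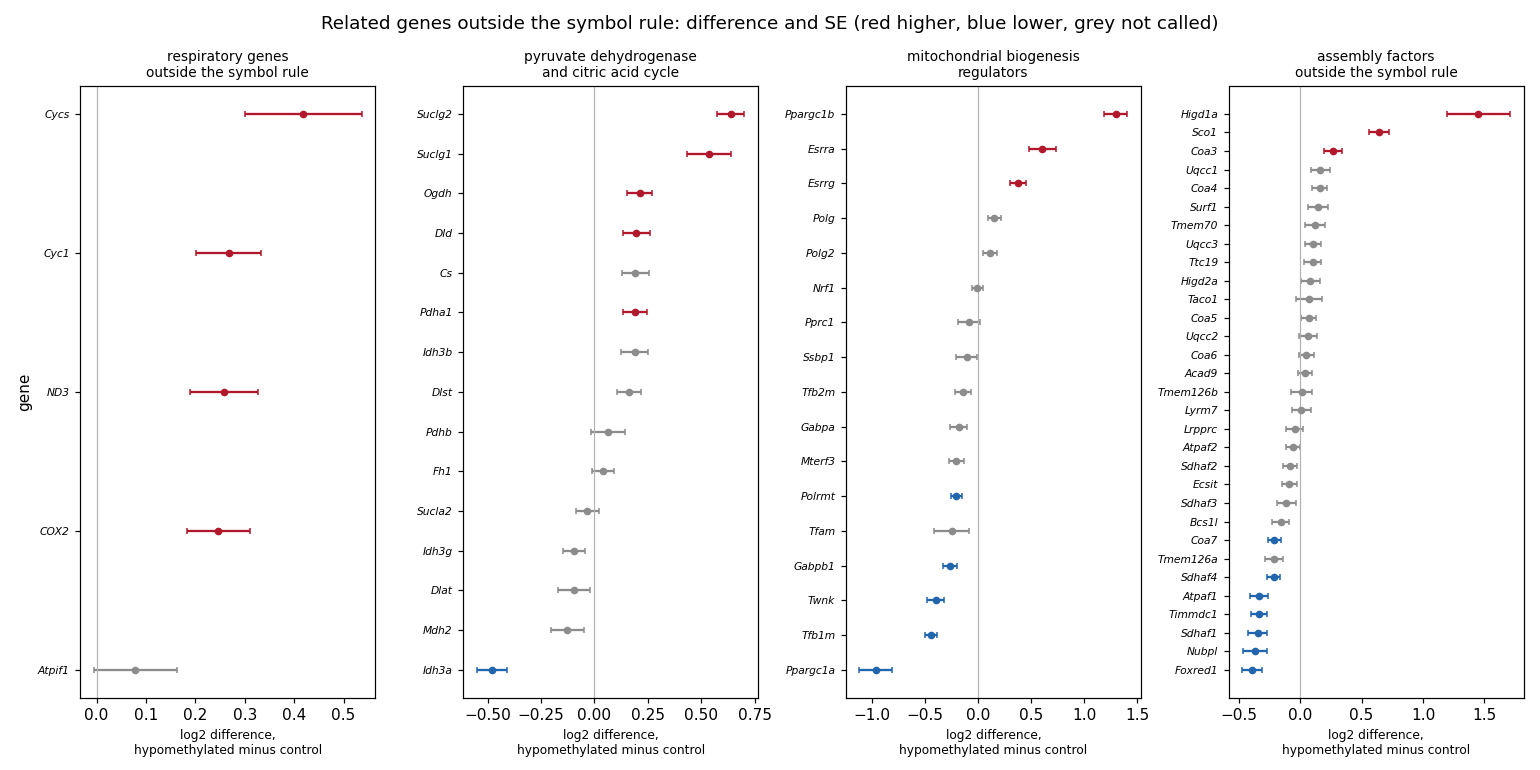
Log2 difference (hypomethylated minus control tumours, horizontal axes) with its SE for related genes outside the symbol rule, in 4 lists (vertical axes, genes by difference); red genes rose, blue fell and grey did not pass. Ppargc1b and Esrra lie at the top and Ppargc1a at the bottom of the regulators, and Higd1a lies far above the other assembly factors.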

How the data were processed

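Total RNA of 6 mouse colon tumours was biotin-labelled and hybridised to Affymetrix mouse Gene 1.0 ST arrays, per the labels' protocols. The values the authors deposited are treated as log2, with the base inferred from their size. Each of 28856 probe sets had a median within 1e-06 of 0 over the 6 arrays. The array normalization, the summary method and the build are not stated in the labels. Of the probe sets 21789 had 1 gene symbol and were averaged per gene to 19938 genes, 1621 had several symbols and 5446 had none; the last 2 kinds were left out. Processed pseudogenes and close paralogues can share probes with these genes, which the arrays do not resolve.

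Groups were compared with limma 3.58.1 (R 4.3.3) by lmFit and eBayes over all genes, with Benjamini-Hochberg adjustment and a threshold of 0.05; the script was tested on simulated data. An array has no read depth, so the number of tumours, 3 in each group, limits precision. Figures used matplotlib 3.10.9 and promoters Python 3.11.15. Alternatives were a block for replicate number, quantile or median normalization, array weights, robust eBayes, genes with 1 probe set, genes inferred at 8 or above, an adjusted p of 0.01, and each tumour left out in turn. The genes, the lists and the tests were chosen with earlier results of these data known. Genes to be named were called members with a difference of at least 0.5, up to 4 called members of each role in each direction with the smallest p, the largest rise and fall of each complex, all of complex II and all tissue isoforms, and, outside the members, up to 4 called genes of each list and Ppargc1a, Esrra, Nrf1, Gabpa, Tfam, Cyc1, Cycs and Dnmt1. Other genes are named after their values were seen, so that every member is accounted for.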

Additional observations from a re-analysis of the deposited data

How the results depend on the processing

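The direction of the median difference held for all 97 genes and for each complex under every alternative run. With each tumour left out in turn, the number of genes that rose ranged over 20 to 57 for all 97, 3 to 21 for complex I, 2 to 4 for complex II, 3 to 7 for complex III, 8 to 16 for complex IV and 3 to 9 for complex V, and none fell. The median difference ranged over 0.19 to 0.30 for all 97 genes, 0.13 to 0.23 for complex I, 0.31 to 0.48 for complex II, 0.34 to 0.45 for complex III, 0.18 to 0.32 for complex IV and 0.18 to 0.29 for complex V. At an adjusted p of 0.01, 15 genes (15.5%) rose, where 5.98% of all genes did. Of these complex I had 2, complex III 2, complex IV 7 and complex V 2. The 2 of 41 genes in complex I are no larger a share than that of all genes. With array weights 58.8% of the 97 genes rose, where 14.3% of all genes did. In that fit 20 genes of complex I and 10 of complex V rose, and 2 genes, Ndufaf1 and Ndufc2 of complex I, fell. With only genes inferred at 8 or above, 1 gene, Ndufc2, fell (adjusted p = 0.0440), and the median of complex IV was 0.28. With the replicate number as a block 22 genes rose, 4 of complex I and 8 of complex IV, while 7.74% of all genes rose. The numbers do not pair the tumours: deviations of same-numbered tumours from their group means correlated at -0.29, -0.31 and -0.22 over 19938 genes, so the block is not taken as the better fit. The causes of these shifts were not tested; the stricter threshold and the smaller number of tumours lower counts by their construction. Of the results for single named genes, 995 kept their direction and side of the threshold, 141 lost and 4 gained a call. The sign changed in 9, none of them called in either fit. With each tumour left out in turn, Cox4i2 ranged over -0.12 to 0.023, Cox8b over -0.053 to 0.039, Cox8c over -0.051 to 0.15 and Ndufa4l2 over -0.099 to 0.074, where Ndufa4l2 was also at -0.015 without control tumour 1. With quantile normalization Cox8b was at 0.0069 and Nrf1 at 0.026, with array weights Cox8b was at 0.023, and after centring of the arrays by their medians Nrf1 was at 0.0069. Of the 42 calls 15 held under every setting that tested all genes. Values centred per probe set hold no signal over background, so changes of dim genes may be understated by an amount that cannot be given.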

Other observations

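Genes of the respiratory chain whose probe sets carry several symbols have values outside the counts of the report. The 3 probe sets shared by Cox7c, a subunit of complex IV, and Gm12338 differed by 0.17 to 0.19 on the log2 scale (limma, adjusted p = 0.0650 to 0.0917 over probe sets), and no call was made. The 2 probe sets of Ndufb4 and Ndufb4b each differed by -0.026 (adjusted p = 0.817 and 0.818), the probe set of Cox16 and Gm20498 by 0.16 (adjusted p = 0.412), and that of Ndufs5 and its pseudogene Ndufs5-ps by 0.15 (adjusted p = 0.299).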
